A study of Canis lupus familiaris with 6 samples.

Results

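Ribosome biogenesis factors are the proteins that build ribosomes in the nucleolus without becoming part of them. Here 60 of them were chosen by name and sorted by step into rDNA transcription (8 genes), small nucleolar ribonucleoproteins or snoRNPs (7), assembly of the small subunit (26) and assembly of the large subunit (19). The choice was made with earlier results of these data known, so counts set beside all tested genes are descriptions. A row with that exact symbol was found for 54 of the 60, among 29822 annotated genes, and all 54 passed the filter on low counts. UTP14A, TSR1, DDX52, PWP2, TBL3 and BOP1 had no row of that name and are not analysed here. The measurements come, per the labels, from CMM10, a cell line of canine malignant melanoma, whose polyadenylated RNA was sequenced in 3 hypoxia and 3 normoxia libraries. The labels name hypoxia or normoxia as the treatment and give no oxygen level, no duration and no other agent, and they give this 1 line for all libraries. The names of the deposited files carry 2 other tags in place of CMM10, 1 shared by the hypoxia files and 1 by the normoxia files. What the tags mean is not given in the sources used here, the labels were followed, and anything the tags mark cannot be told apart from the treatment. Nothing in the labels says that the replicates were separate cultures, so p-values measure only the spread between these libraries, which may be technical.

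A ribosome starts as a long precursor RNA that RNA polymerase I transcribes from the rDNA repeats with the help of UBTF and RRN3. Box C/D snoRNPs methylate this precursor and box H/ACA snoRNPs turn uridines in it into pseudouridine. The U3 snoRNP and the UTP proteins form the small subunit processome, which folds and cuts the part that becomes 18S rRNA, while another set of helicases, GTPases and methyltransferases matures the large subunit. Making ribosomes costs much of a growing cell's energy, and MYC and mTORC1 signalling are known to drive it.

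Libraries held 23196647 to 28804337 gene reads, which gave the members 237 to 26172 reads each. Known targets of the hypoxia-inducible factors were higher in the hypoxia libraries, with CA9 at 3.77 ± 0.042, SLC2A1 at 2.49 ± 0.038, VEGFA at 1.80 ± 0.04, BNIP3 at 4.64 ± 0.13 and ADM at 4.55 ± 0.063. These values, and all changes below, are the log2 of hypoxia over normoxia ± SE (edgeR's quasi-likelihood test, n = 3 libraries per group). Over all 15397 genes tested, 3778 were called higher and 3761 lower (3076 and 4862 when scaled by library size alone). Of 10 melanocytic markers, MITF, SOX10, DCT and SLC45A2 were present at 24, 63.3, 48.8 and 27.8 TPM (transcript level per length and per library), but the pigment enzyme TYR was listed at 0 in every library and TYRP1, MLANA and PMEL averaged 0.0205, 1.06 and 1.75 TPM. The epithelial markers found (4 of 6 listed) summed to 449 to 468 TPM under normoxia and 1145 to 1292 under hypoxia, mostly KRT14, and 2 of them rose and 1 fell. The 6 fibroblast markers summed to 2176 to 2307 and 2838 to 2933 TPM, mostly COL1A2. CD3E was listed at 0 throughout and PTPRC and PECAM1 averaged 0.0423 and 0.00982 TPM, although the B-cell gene CD79A averaged 508 TPM. The part of these marker shifts in the results below was not tested.

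Most ribosome biogenesis genes were lower under hypoxia. Of the 54 members, 49 fell and 2 rose at an adjusted p below 0.05, where 24.4% of all tested genes fell and 24.5% rose. The median change of the 54 was -0.48 against 0.00 for all tested genes, and the members ran from -0.96 (RRS1) to 0.67 (WDR75). The falls were moderate in size: against a null of a 1.5-fold change (edgeR's glmTreat) 7 members, RRS1, WDR12, DDX21, POLR1A, NOC4L, DKC1 and NOP58, were lower and 0 higher (all genes: 0.617% lower and 4.91% higher). By value alone, 17 members were lower by more than 1.5-fold. The smallest of these falls was that of UTP15 (1.503-fold), and 3.7% of all tested genes had a lower value than UTP15. The count of 7 became 4 with DESeq2 and 12 when scaled by library size alone. Library size scaling also moved the median of all tested genes to -0.07. The shares of all genes past 1.5-fold under these settings are not given here, so the shifts in the count say nothing particular to the members. All hypoxia values lay below all normoxia values in 50 members and above them in 2, compared with 27.5% and 27.8% of all tested genes. The 49 falls held without any 1 of the 6 libraries. The largest adjusted p among them was that of NOP16, 0.0022. In bulk RNA, fewer cells of a type and less RNA per cell cannot be told apart.

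**Figure D1:**
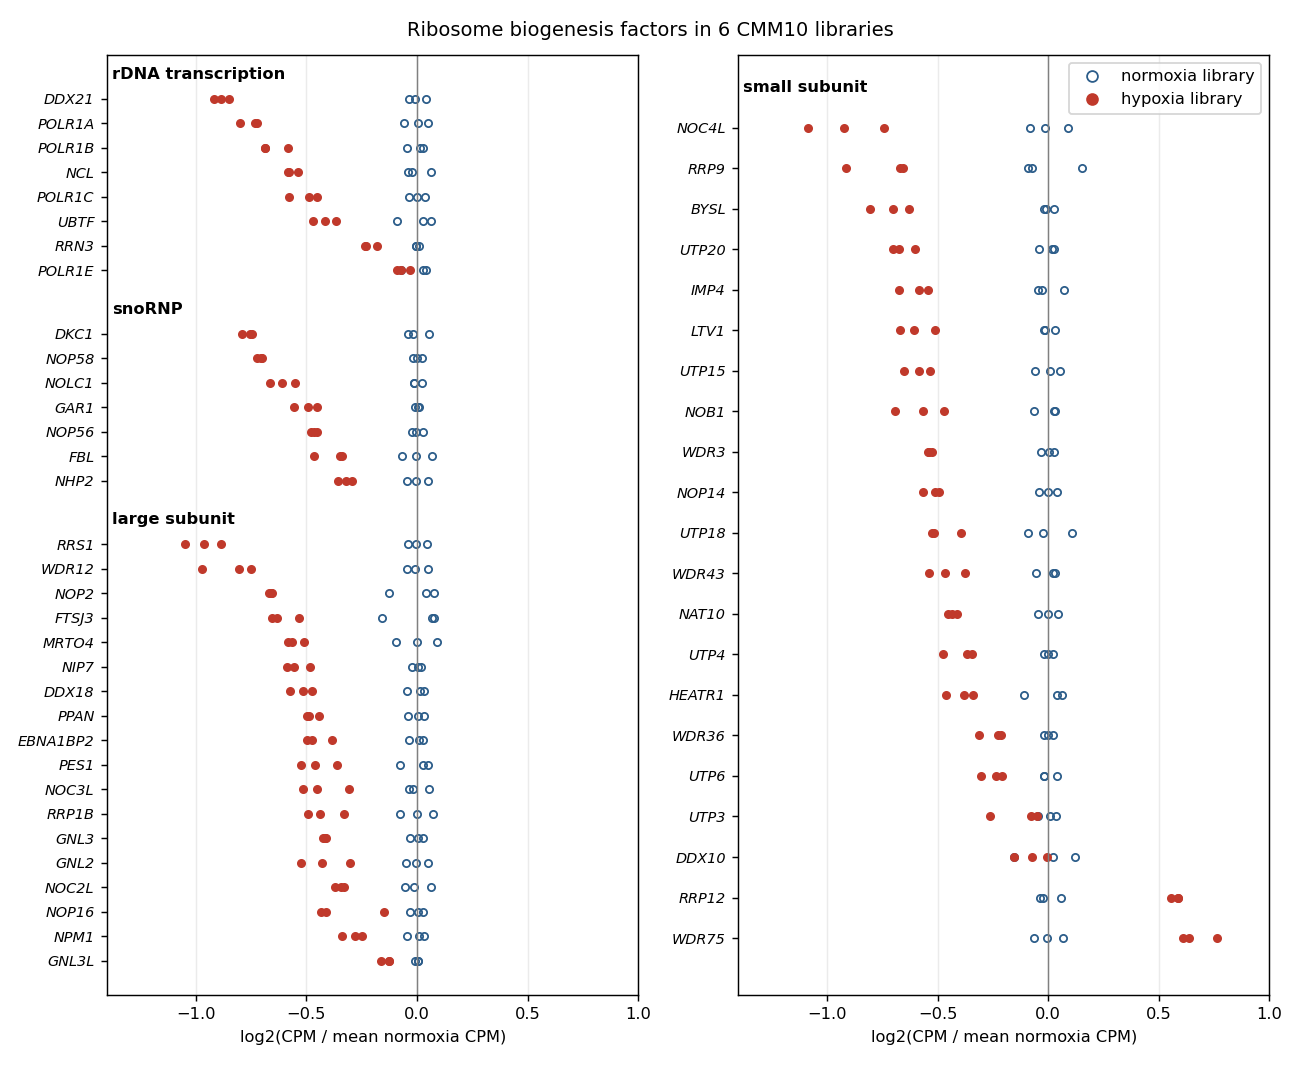
Level of each of the 54 members in each library as log2 of its CPM (reads of the gene per TMM-scaled library of a standard size) over the gene's mean normoxia CPM. Open blue circles are the 3 normoxia libraries and filled red circles the 3 hypoxia libraries. Hypoxia circles lie left of the normoxia circles in 50 members and right of them only in RRP12 and WDR75.

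Summed over the 54 members, the deposited TPM went from 6644 ± 32.1 to 4858 ± 36.6 (mean ± SD, n = 3), 26.9% lower under hypoxia. By step, the sum was lower by 31.8% for rDNA transcription (from 1094 ± 7.97 to 746 ± 2.61 TPM), by 30.9% for snoRNPs (from 1158 ± 14.2 to 800.1 ± 15.8), by 23.5% for the small subunit (from 1547 ± 14.4 to 1184 ± 16.3) and by 25.2% for the large subunit (from 2846 ± 19 to 2128 ± 40.8). In each step the 3 hypoxia sums lay below the 3 normoxia sums. Single genes weigh heavily in some sums. Under normoxia NPM1 alone averaged 1309 TPM in the large subunit and NCL 569 TPM in rDNA transcription. The percentages of the steps were not tested against each other. The two-sided exact permutation test gave p = 0.1 for each sum, the smallest p that 3 against 3 can give. These are also shares of the RNA in a library, so a change in the RNA content of the cells would not be seen.

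**Figure D2:**
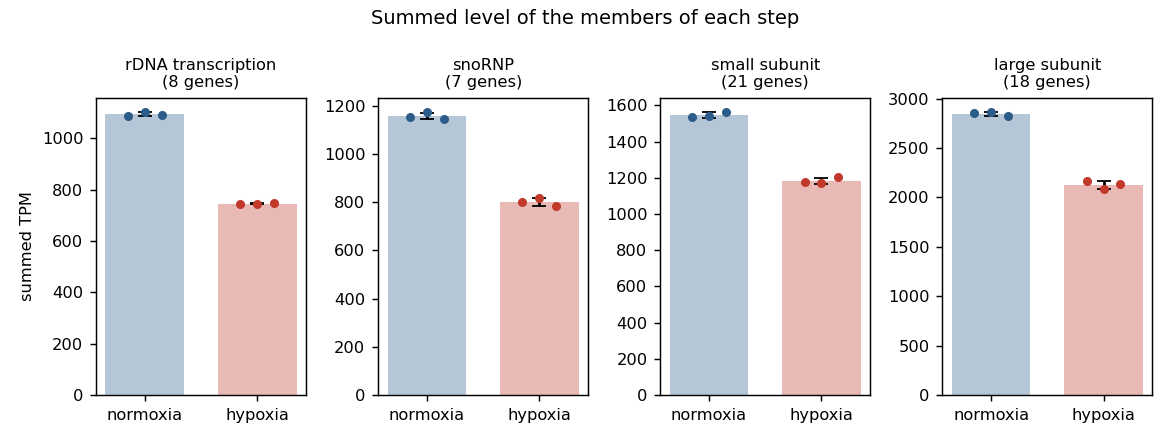
Summed TPM of the members of each step, with bars for the mean of 3 libraries, error bars for the SD and points for single libraries. Every axis starts at 0. The spread between libraries is small beside the difference between groups, for example 1147 to 1174 TPM under normoxia and 784 to 816 under hypoxia for the snoRNP genes.

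Of the 8 genes of rDNA transcription, 7 fell and 0 rose, with a median of -0.54. DDX21, a nucleolar helicase that acts on polymerase I transcription and on rRNA processing, was at 154, 146 and 149 CPM in normoxia replicates 1 to 3 and at 79.3, 83.1 and 80.9 in hypoxia replicates 1 to 3. It fell by 1.84-fold (-0.88 ± 0.041, adjusted p = 3.72e-18), with no overlap between the groups. POLR1A, the largest catalytic subunit of RNA polymerase I, was at 99.4, 96.3 and 92.3 CPM under normoxia and 55.1, 58.2 and 57.8 under hypoxia (-0.75 ± 0.047). Its catalytic partner POLR1B went from 99.7, 101 and 95.9 to 61.4, 61.3 and 66 CPM (-0.65 ± 0.046). Both large subunits were thus lower in each hypoxia library than in any normoxia library. POLR1C, which polymerase I shares with polymerase III, fell by 0.51 ± 0.061, and the gene model of XPO5 overlaps it on the other strand (0.03 ± 0.045, not called). POLR1E, which forms a heterodimer on the enzyme's surface, was at 82.2, 81.3 and 75.9 CPM against 75.8, 78.1 and 75 and did not pass the test (-0.07 ± 0.047, adjusted p = 0.261). POLR1E is the member of this step whose groups overlapped, and it was called lower when scaled by library size alone.

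The most abundant transcript of the step was NCL, encoding nucleolin, which binds rRNA genes and their first transcripts. It averaged 472 TPM over the 6 libraries and went from 797, 844 and 786 CPM under normoxia to 558, 539.8 and 542 under hypoxia (-0.57 ± 0.034). UBTF, which holds rDNA repeats in an active state, fell from 108 ± 5.91 to 80.7 ± 2.96 CPM (-0.42 ± 0.046). RRN3, which brings polymerase I to the promoter, had the smallest called fall of the step, from 126 ± 0.779 to 108 ± 2.29 CPM (-0.22 ± 0.04). RRN3 shares its locus with PDXDC1 on the other strand, whose change was -0.01 ± 0.035. The 8 genes therefore covered changes from near 0 to almost 1 on the log2 scale.

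All 7 genes of the snoRNP step fell, with a median of -0.50. DKC1, the pseudouridine synthase of the box H/ACA particles, stood at 172, 181 and 169.9 CPM under normoxia and at 104, 101 and 104 under hypoxia (-0.76 ± 0.039, adjusted p = 5.8e-17). Its partners in the same particle fell too, GAR1 at -0.50 ± 0.049 and NHP2 at -0.32 ± 0.043. NHP2 overlaps RMND5B on the other strand, which itself fell (-0.40 ± 0.049). NOP58, a scaffold of the box C/D particles, had 178, 183 and 181 CPM in normoxia and 111, 109.6 and 111 CPM in hypoxia (-0.71 ± 0.038). The paired scaffold NOP56 (194 TPM on average) moved from 251, 257 and 248 CPM to 184, 181 and 183 CPM (-0.47 ± 0.035). FBL, the methyltransferase of those particles and the most abundant snoRNP transcript at 332 TPM, went from 184, 193 and 176 CPM to 145, 146 and 133 CPM (-0.38 ± 0.042). Within both kinds of particle the core genes among the members thus fell together while their sizes of change spread from -0.32 to -0.76. NOLC1, a chaperone of both particles, was at 102, 100.05 and 100.06 CPM and then 68.8, 66.1 and 63.5 CPM (-0.61 ± 0.045). No hypoxia value of any of the 7 genes reached a normoxia value.

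Of the 21 small subunit genes with a row, 17 fell and 2 rose, with a median of -0.48. NOC4L, which works as a pair with NOP14 in the processome, was at 27, 29 and 25.8 CPM under normoxia and 12.9, 16.3 and 14.4 under hypoxia (-0.91 ± 0.084, adjusted p = 8.78e-11). The gene overlaps DDX51 on the other strand, which was at -0.19 ± 0.082 and not called. NOP14 itself fell from 171, 176 and 166 CPM to 119.5, 115 and 121 CPM (-0.52 ± 0.039), with non-overlapping groups like its partner. RRP9, the protein specific to the U3 snoRNP, was at 43.7, 51.7 and 44.2 CPM and 29.5, 29.2 and 24.7 CPM (-0.74 ± 0.074). BYSL, which stays on the late precursor, was at 42.3, 43.4 and 42.1 CPM and 27.5, 26.2 and 24.4 CPM (-0.71 ± 0.064). All 3 hypoxia libraries lay below all normoxia libraries in both genes. IMP4, which binds the U3 snoRNA complex with MPHOSPH10 and IMP3, fell by 0.60, and UTP20, a very large processome protein, by 0.66.

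The UTP proteins act in subcomplexes. In UTP-B, 4 of the 6 genes had a row and all 4 fell: WDR3 (-0.54 ± 0.037), UTP18 (-0.48 ± 0.051), WDR36 (-0.25 ± 0.036) and UTP6 (-0.25 ± 0.05). WDR36 was the most abundant of the small subunit genes at 172 TPM, with 247, 244 and 240.4 CPM in normoxia and 208, 196 and 211 in hypoxia. In UTP-A, which binds the nascent precursor first, UTP15 (-0.59 ± 0.054), WDR43 (-0.46 ± 0.044), UTP4 (-0.40 ± 0.043) and HEATR1 (-0.39 ± 0.045) fell but WDR75 rose (0.67 ± 0.045). NOL11, the remaining UTP-A gene and not among the members, fell as well (-0.50 ± 0.046). Per length, WDR75 was the third of these genes under normoxia (71.7, 69.3 and 76.2 TPM), where WDR43 (116, 119 and 115 TPM) and UTP4 (113, 110.1 and 115 TPM) were highest. Under hypoxia WDR75 was highest at 107, 109 and 119.8 TPM, above WDR43 at 81.5, 80 and 88.6 TPM and UTP4 at 84.3, 79.5 and 87.4 TPM. UTP4 shares part of its locus with SNTB2 on the same strand, and HEATR1 overlaps LGALS8 on the other strand, which rose by 0.15 ± 0.035.

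**Figure D3:**
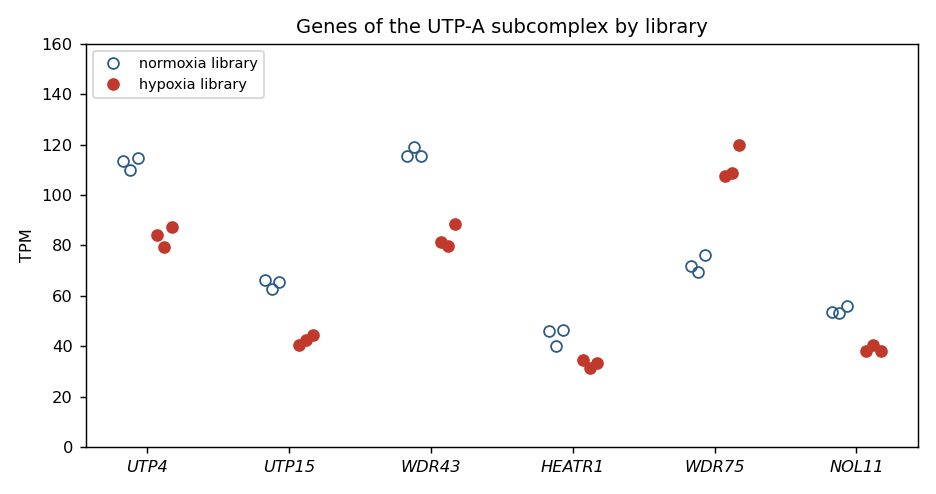
Level of the 6 UTP-A genes in TPM (reads per length, on an axis from 0) in each normoxia library (open circles) and each hypoxia library (filled circles). UTP4, UTP15, WDR43, HEATR1 and NOL11 are lower in every hypoxia library, and WDR75 is higher, at 107 to 119.8 TPM.

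Other factors of the small subunit fell too. NOB1, the endonuclease that makes the mature end of 18S rRNA, fell by 0.57 ± 0.054 while WWP2, which overlaps it on the other strand, rose (0.39 ± 0.054). LTV1, which accompanies the precursor out of the nucleus, changed by -0.59 ± 0.058, and NAT10, which acetylates 18S rRNA, by -0.43 ± 0.049. Among the 3 members of the whole set that did not pass the test, 2 belong here and were named for that reason after their values were seen. UTP3 was at 65.1, 68.9 and 67.5 CPM under normoxia and 63.6, 64.8 and 56 under hypoxia, just missing the threshold (-0.13 ± 0.054, adjusted p = 0.0502), with groups that did not overlap. It was called lower from uniquely mapped reads, without the low count filter, with the replicate block, with library size scaling and without hypoxia replicate 1 or 2. The helicase gene DDX10 was the least abundant member (7.01 TPM), at 11.2, 12.1 and 9.94 CPM and 11, 9.96 and 10.54 CPM, with overlapping groups (-0.08 ± 0.11, adjusted p = 0.58).

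All 18 large subunit genes with a row fell, with a median of -0.45. RRS1, which with RPF2 brings the 5S particle into the precursor, had the largest fall of all members. It was at 33.9, 35.9 and 34.7 CPM in the normoxia libraries and at 17.8, 18.8 and 16.8 in the hypoxia libraries, 1.95-fold lower (-0.96 ± 0.07, adjusted p = 3.51e-13). WDR12 followed with 34.9, 32.6 and 33.4 CPM under normoxia and 20, 17.2 and 19.3 CPM under hypoxia (-0.84 ± 0.072). It forms the PeBoW complex with PES1, which also fell (-0.45 ± 0.057), and with BOP1, which had no row. NOP2, a methyltransferase of the large rRNA, moved from 144, 141 and 125 CPM to 86.9, 86.5 and 86.1 CPM (-0.66 ± 0.046). In each of these genes the groups were apart.

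NPM1, the nucleolar chaperone nucleophosmin, was the most abundant member at 1184 TPM. It had 935, 951 and 902 CPM under normoxia and 783, 735 and 766 under hypoxia, a fall of 18.1% (-0.29 ± 0.033). EBNA1BP2, second in level in this step at 207 TPM, went from 124, 122 and 118 CPM to 92.8, 85.9 and 87.2 CPM (-0.45 ± 0.043). The methyltransferase FTSJ3 (-0.61 ± 0.057), MRTO4 (-0.55 ± 0.055), NIP7 (-0.54 ± 0.043) and the helicase DDX18 (-0.52 ± 0.041) all fell by over 0.5. Of the nucleolar GTPases, GNL2 (-0.42 ± 0.056) and GNL3, or nucleostemin (-0.42 ± 0.05), fell, and GNL3L had the smallest called fall of all members (-0.14 ± 0.035, adjusted p = 0.00118). Reads of GNL3 may include those of SPCS1, which overlaps it on the same strand and was at -0.18 ± 0.039. The paired factors NOC3L (-0.42 ± 0.06) and NOC2L (-0.35 ± 0.045), and also PPAN (-0.48 ± 0.051), RRP1B (-0.42 ± 0.049) and NOP16 (-0.32 ± 0.086), lay between GNL3L and the values over 0.5.

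RRP12 and WDR75 were the only members called higher. RRP12, a HEAT-repeat protein needed for export of precursors from the nucleus, was at 64.4, 60.3 and 60.8 CPM under normoxia and 91, 93 and 92.8 under hypoxia, 1.49-fold higher (0.58 ± 0.046, adjusted p = 3.14e-12). WDR75 was at 91.6, 88.1 and 96.4 CPM and 143, 140.4 and 156 CPM, 1.59-fold higher (0.67 ± 0.045, adjusted p = 4.01e-14). Both were called higher under each alternative tried and without any 1 library. Against a null of a 1.5-fold change neither was called from gene reads. RRP12 was called from intron reads alone, and WDR75 without normoxia replicate 3. After their values were seen, the genes around these 2 loci were also looked up. RRP12 lies on the minus strand of chromosome 28 (10671786 to 10717358, CanFam3.1). A protein-coding model without a symbol, ENSCAFG00000009222, starts 2736 bases from its start on the plus strand, so that the pair is head to head. That model was at 685, 677 and 636 CPM under normoxia and 2649.9, 2584 and 2636 CPM under hypoxia (1.98 ± 0.035). In the RefSeq annotation of another dog assembly, UU_Cfam_GSD_1.0, a neighbour of RRP12 is PGAM1, a glycolytic enzyme gene. Whether PGAM1 is the gene of this model was not established. WDR75 lies on the plus strand of chromosome 37 (157455 to 190916). A lncRNA model on the minus strand whose start is 6089 bases away rose from low levels, 0.0754, 0.218 and 0.252 CPM, to 1.56, 1.68 and 0.793 CPM (2.87 ± 0.48). Other genes tested within 120000 bases of RRP12 did not rise. EXOSC1 (-0.49 ± 0.1) and a model without a symbol (-0.37 ± 0.1) fell. ZDHHC16, MMS19, ANKRD2 and another model without a symbol were not called. Within 120000 bases of WDR75, SLC40A1 rose as well (0.59 ± 0.066). The part of these neighbours in the rise of RRP12 and WDR75 was not tested.

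The test counts all reads of a gene, which the deposited files divide into exon reads and intron reads. RRS1 and UTP3 have a single annotated exon and no intron, and still 26.6% and 13.4% of their reads are counted as intron reads. Reads called intron reads here are therefore reads of a gene that were not counted to its exons, and some need not come from introns. Their share in the other 52 members ran from 3.54% (NPM1) to 40.7% (NOC3L), with a median of 12.1%. Exon reads alone gave the same 49 falls and 2 rises (all genes: 23.8% lower and 24.4% higher). Intron reads alone, which are fewer, called 38 members lower and 2 higher (all genes: 15.7% lower and 18.7% higher), and those 38, which include RRS1, are among the 49. Of the 52 members with more than 1 exon, 48 fell in gene reads and 37 in intron reads. The median change of all 54 was -0.49 in exon reads and -0.43 in intron reads. The difference between the intron and the exon change of a gene was then tested within libraries. It was called in 4 of the 54 members, 1 with the intron change below the exon change and 3 above, where 3.11% and 2.63% of the 12265 genes tested were called. RRP12 rose by 1.00 in intron reads and by 0.53 in exon reads, a difference of 0.47 ± 0.11 (edgeR, adjusted p = 0.008). NOP14 changed by -0.16 in intron reads and -0.54 in exon reads, and NOC2L, at 96.6, 102 and 94 CPM under normoxia and 76.9, 77.6 and 75.4 under hypoxia over all its reads, by -0.06 and -0.42, so that in both the exon change was the lower one. In NPM1 the intron change was the lower one, -0.51 against -0.27. Each of these 4 calls was lost without at least 1 library. RRP12 lost its call only without normoxia replicate 1 (0.39, adjusted p = 0.088), NOC2L without hypoxia replicate 2 (0.30, adjusted p = 0.115) or normoxia replicate 1 (0.33, adjusted p = 0.0816). NOP14 lost it without hypoxia replicate 1 (0.34, adjusted p = 0.0918), hypoxia replicate 2 (0.37, adjusted p = 0.0687), normoxia replicate 2 (0.38, adjusted p = 0.0502) or normoxia replicate 3 (0.36, adjusted p = 0.0532). NPM1 kept it only without hypoxia replicate 2 (-0.31, adjusted p = 0.0119), and in the other 5 cases its adjusted p lay between 0.0501 and 0.181. It was also lost when intron reads were scaled by the exon factors (-0.24, adjusted p = 0.0706). The intron share of whole libraries was 24.2% ± 0.76 under normoxia and 24.6% ± 0.67 under hypoxia (exact permutation p = 0.6).

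**Figure D4:**
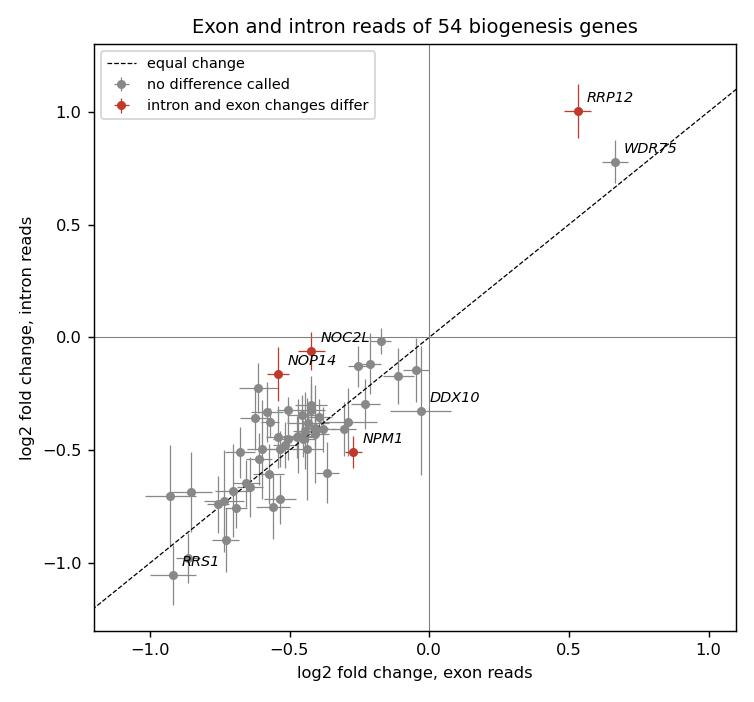
Log2 fold change of each of the 54 members in intron reads (vertical) against exon reads (horizontal), with bars of 1 SE and a dashed line of equal change. The 4 members in red, RRP12, NOP14, NOC2L and NPM1, have an intron change called different from their exon change. Most others lie along the line at the lower left, where both changes are below 0.

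The members were spread over 25 chromosomes, with at most 5 on any 1. Some lie near each other. UTP4, NIP7 and NOB1 are 89809 to 439937 bases apart on chromosome 5. NOP58 and WDR12 are 475498 bases apart on chromosome 37, and RRP9 and GNL3 664309 bases apart on chromosome 20. Of 93 tested genes that flank members and are not members, 30 fell and 24 rose (32.3% fell), with a median of 0.02. For this and the counts below, 24.4% of all tested genes fell and 24.5% rose. A snoRNA model overlaps 7 of the 54 members on the same strand (13.0%). Of all 19947 annotated protein-coding genes, expressed or not, 186 (0.932%) hold such a model in full. The shares were thus counted by unlike rules over unlike sets. The 7 members, NCL, NOP56, NOP58, DKC1, WDR43, PPAN and GNL3, have 23 such models, and all 7 fell, with a median of -0.48. Mature snoRNAs carry no poly(A) tail and were not analysed here. Another long gene overlaps 12 of the members, and of the other 42, 37 fell and 2 rose. Across the 54 genes, which are not independent replicates and come from the same 6 libraries, the change had Pearson correlations of 0.05 with log2 of the mean TPM, 0.06 with the intron share, 0.14 with log2 of the exon length and 0.27 with log2 of the gene length (Spearman 0.11, 0.13, 0.10 and 0.24).

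Other genes of the pathway, from lists that share no gene with the members, were mostly lower too. These lists were also chosen with earlier results of these data known, so they are not independent support. Of 113 such genes with a row, 112 were tested: 92 fell and 5 rose, with a median of -0.32 and again 24.4% and 24.5% of all tested genes as background. Of 12 other rDNA transcription genes, 9 fell and 0 rose. From exon reads alone 6 of these 12 fell and 0 rose (all genes: 23.8% lower and 24.4% higher). The largest falls were those of the polymerase I subunits listed under their older names CD3EAP (-0.81 ± 0.1), which overlaps ERCC1, and ZNRD1 (-0.52 ± 0.062), while POLR1D, shared with polymerase III, was at 0.01 ± 0.047 and not called. Of 31 other small subunit genes, 27 fell and 1 rose. NOL6 went from 46.6 ± 2.93 to 23 ± 1.29 CPM (-1.01 ± 0.066) and WDR46 fell by 0.74, while BUD23, a methyltransferase of 18S rRNA, rose (0.13 ± 0.037). The 3 genes of the MPP10 complex all fell, MPHOSPH10 by 0.51, IMP3 by 0.69 (in a locus shared with SNUPN on the same strand) and the member IMP4 by 0.60.

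Of 44 other large subunit genes, 34 fell and 4 rose. GRWD1 (-1.11 ± 0.094, from 19.5 ± 1.12 to 9.06 ± 0.495 CPM) and MYBBP1A (-0.82 ± 0.034) fell most, and NOP53 (0.18 ± 0.048) and ZNF622 (0.17 ± 0.041) rose most. From exon reads ZNF622 was at -0.07, and from intron reads NOP53 was at -0.23, and neither was called there. BUD23 and NOP53 were not called when scaled by library size alone (adjusted p = 0.159 and 0.0569), and BUD23 also not from intron reads or without normoxia replicate 3 (adjusted p = 0.0543). RPF2, the partner of RRS1, fell by 0.22. Of 10 other snoRNP genes, 8 fell and 0 rose, with the assembly factors ZNHIT6 (-0.71 ± 0.063) and NUFIP1 (-0.47 ± 0.071) lowest and NOP10, the fourth core protein of the H/ACA particle, at -0.27 ± 0.047. Of 15 genes of the RNA exosome and of rRNA trimming, 14 fell and 0 rose, EXOSC6 (-0.85 ± 0.18) and EXOSC5 (-0.57 ± 0.13) most. EXOSC5 overlaps a model without a symbol on the other strand. Long genes with more reads also overlap EXOSC1 and EXOSC8 on the other strand and EXOSC4 and EXOSC7 on the same strand. Reads of these genes may include those of their neighbours.

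**Figure D5:**
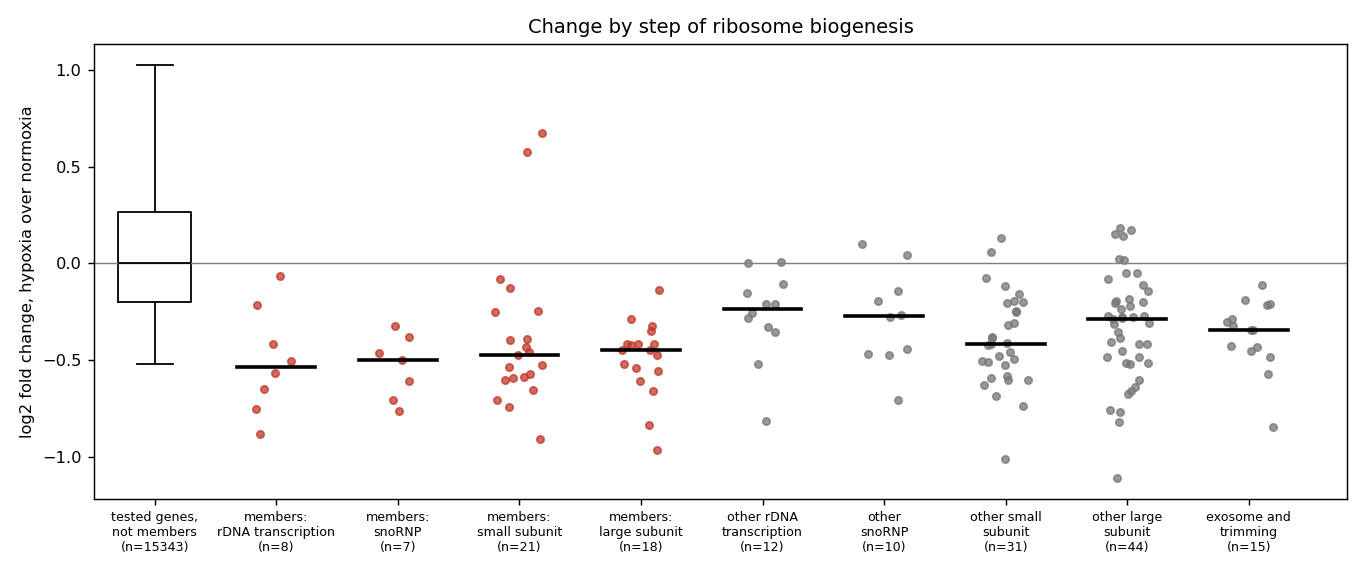
Log2 fold change of hypoxia over normoxia for the members of each step (red points), for other genes of the pathway (grey points) and for all tested genes that are not members (box from the first to the last quartile, whiskers at the percentiles 5 and 95). Thick lines are medians, which lie between -0.54 and -0.45 for the members' steps and between -0.42 and -0.23 for the other lists.

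MYC, the transcription factor known to drive many of these genes, was at 107, 106 and 98.9 CPM under normoxia and 99.3, 101 and 95.4 under hypoxia and did not pass the test (-0.08 ± 0.043, adjusted p = 0.142). It was called lower when scaled by library size alone (-0.14, adjusted p = 0.00602) and without normoxia replicate 3 (-0.12, adjusted p = 0.0384). These are RNA levels alone, and the part of MYC in the members' falls was not tested.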

How the data were processed

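Polyadenylated RNA of 6 CMM10 libraries (3 hypoxia, 3 normoxia) was prepared with a NEBNext Ultra II kit and sequenced paired-end, per the labels' protocols. This kit is taken here to keep no strand, so reads of overlapping genes may be mixed. The deposited counts are, per the file headers, total, unique, exon and intron reads of each gene. The deposited TPM values are per exon length. CanFam3.1 is the build in the submitters' processing notes, whereas the aligner and the counter used are not given in the sources used. Groups and replicate numbers came from the titles.

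Total gene reads were filtered by edgeR's filterByExpr, scaled by TMM and compared by edgeR (glmQLFit, robust, and glmQLFTest) over all 15397 genes kept. Calls needed a p below 0.05 after Benjamini-Hochberg adjustment, and glmTreat gave the test against 1.5-fold. CPM values are per TMM-scaled library. Intron against exon change was edgeR's interaction of read kind and treatment with library as a block, each kind scaled by its own TMM factors. Scripts were tested on simulated data. Replicates differed by more than sampling noise (chi-square per degree of freedom 4.29 to 13.7), and each was counted as 1 sample. The tools were DESeq2 1.42.0, edgeR 4.0.16 and R 4.3.3, with figures drawn in matplotlib 3.10.9.

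The members and lists were chosen with earlier results of these data known. Values per library are given for the 3 largest falls and the 2 highest TPM of each step, for rises and for called intron differences. The 2 largest rises and falls of each further list with a mean of at least 1 CPM are also named. Other genes named are examples chosen after their values were seen. Alternatives were other read kinds, scaling, tests, filters, a replicate block and leaving out each library. No genome or promoter sequence was used here, so the planned motif search was not run.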

Additional observations from a re-analysis of the deposited data

How the results depend on the processing

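The 49 members called lower numbered 49 to 51 with exon reads, unique reads, library size scaling, DESeq2, no low count filter and the replicate block, and 49 to 50 without any 1 library, and the same 49 genes were lower each time. Intron reads alone gave 38 of them, 4761 called genes in all (7539 from gene reads) and 54 of the 92 lower genes in the further pathway lists. The members' median of -0.48 became -0.43 in intron reads and -0.54 with library size scaling, which moved the median of all genes to -0.07. Past 1.5-fold, the 7 members, all lower, became 12 with library size scaling and 4 with DESeq2, all lower, and 3 in intron reads, of which DDX21 and RRS1 were lower and RRP12 higher. The shares of all genes past 1.5-fold under these settings are not given here. The 4 members with unlike intron and exon changes became 1 to 3 without 1 library. Without normoxia replicate 2, 1 of the 3 was a gene of rDNA transcription that is not among the 4. The 5 rises in the further lists became 2 with library size scaling. NOP53 changed sign in intron reads (-0.23) and ZNF622 in exon reads (-0.072). The cause of these changes was not tested. Same-numbered libraries did not deviate together (r = -0.087, -0.013 and -0.031), and no library correlated best with its own number. With the replicate number as a block, 50 members were lower and 2 higher. Intron reads were fewer than exon reads in each member, which limits what they can show.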
